A study of Mus musculus with 6 samples.

Results

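Liver induced to make the SV40 oncoprotein 17kT was compared with wild-type liver, gene by gene, over the whole of 2 Affymetrix mouse array designs. The comparison took in 4 of the 6 arrays of the series, chosen by genotype: a 430A and a 430B array from 17kT liver, and the same pair from WT liver. The designs carry different probe sets, so every ratio was taken within a design. The 17kT mice are labelled ApoErtTA:TRE2-TAg (written TRE2-TA in the genotype field) and were induced to make 17kT together with the SV40 small t antigen, st. ApoErtTA is a doxycycline-dependent activator under apolipoprotein E control. WT mice were non-transgenic, so an effect of ApoErtTA or of st cannot be told apart from that of 17kT. All mice, WT included, were males of the hybrid B6SJL background aged 32 to 37 days, and all drank 25 µg/ml doxycycline with 2.5% sucrose for 4 days. The labels do not tell whether an array held RNA of 1 animal or of several. No signal of the transgene product was measured, which leaves the genotype labels unchecked. Signals of the LT arrays (livers induced to make large T antigen with st) are given beside those of 17kT where they help, and any ratio of LT to WT shares the WT arrays with the ratios given here. LT signals also entered the choice of probe set for each gene and the floor described below.

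17kT is a short form of SV40 large T that keeps the motif by which large T binds the retinoblastoma family and lacks the region that binds p53. The retinoblastoma family, or pocket proteins, hold the E2F transcription factors silent on genes of DNA synthesis and mitosis in resting cells, and adult hepatocytes are nearly all resting. p53 is a transcription factor that answers DNA damage and unscheduled division by raising genes of cell cycle arrest, cell death and repair. Small t acts on the phosphatase PP2A. The hepatocyte, the main cell of the liver, makes most plasma proteins and carries out sterol, fatty acid, amino acid and bile acid metabolism and the breakdown of foreign compounds.

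Each value is a signal intensity, and a fold is the ratio of 17kT to WT signals after both were raised to a floor, the median signal of each design (90.4 for 430A, 140.5 for 430B). A gene is called higher or lower when its floored signals differed at least 2-fold, which is 1 on the log2 scale, and a fold is given as "at least" where the dimmer array was below the floor. A log2 ratio of such a gene is likewise a bound. There is 1 array per genotype and design, so no difference has a replicate check, no test was possible, and precision is limited by the number of arrays. The only errors at hand are technical. Over 98 probe sets that lie on both designs and were above the floor on all 4 arrays, a log2 ratio had an SD of 0.28 between designs, and over 3197 probe set pairs, each pair on 1 gene, it was 0.52. These 98 also gave a median log2 ratio of 0.23 on 430A and 0.14 on 430B, and the median of the paired differences (430A minus 430B) was 0.19. A log2 ratio near 1 is thus about 2 technical SDs from 0 by the wider of these errors.

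**Figure D1:**
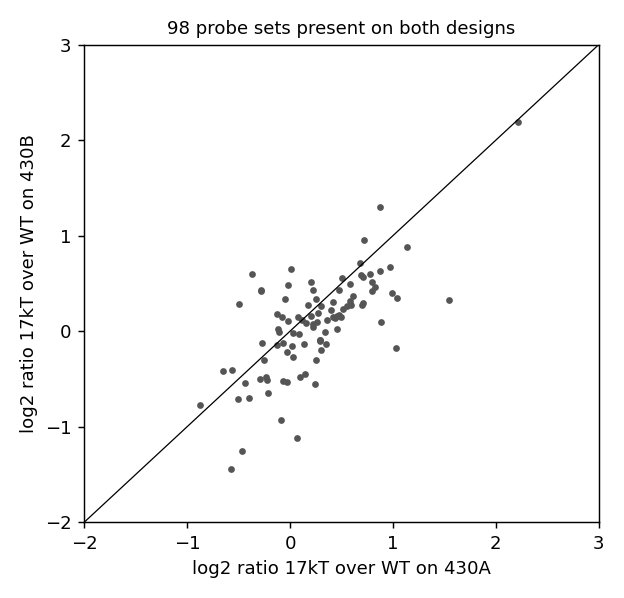
Log2 ratio of 17kT over WT on the 430A design (horizontal axis) against the same ratio on the 430B design (vertical axis) for the 98 probe sets present on both designs and above the floor on all 4 arrays. Each point is 1 probe set and the line marks equal ratios. The points scatter with an SD of 0.28 per ratio, and more of them lie below the line than above, with a median difference (430A minus 430B) of 0.19.

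The arrays of the 2 genotypes differed in RNA measures. The 3′ to 5′ signal ratio of the control gene Gapdh, which grows as RNA breaks down, was 5.81 on 430A and 6.04 on 430B in WT and 3.53 and 2.85 in 17kT. For Actb it was 2.57 and 2.29 in WT and 2.13 and 1.72 in 17kT. Between 48.8% and 52.0% of probe sets lay above the floor. The hybridisation controls, bacterial and phage RNAs added to each sample, had a median log2 ratio of -0.63 on 430A and 0.14 on 430B. The part of these differences in the results below was not tested.

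Genes of the p53 response and of cell division were brighter in 17kT liver, and genes of many branches of hepatocyte metabolism were dimmer. Of 12992 genes above the floor on at least 1 array, 1295 (9.97%) were at least 2-fold higher in 17kT and 1123 (8.64%) at least 2-fold lower, 18.6% in all. A further 5201 genes were at the floor on both arrays and have no direction. The decreases reached further than the increases: 214 genes were at least 4-fold higher and 317 at least 4-fold lower, and 9 were at least 16-fold higher and 56 at least 16-fold lower. The median log2 ratio of all measured genes was 0.075. Other scalings moved it to between -0.098 (scaled to the probe sets on both designs) and 0.38 (scaled to the hybridisation controls), and the share of calls that were higher, 53.6%, moved to 38.7% and 78.7%. Medians of gene lists are given with their range over these 6 scalings, and are read against the shift of all genes. Counts of called members are likewise read against the 9.97% higher and 8.64% lower of all measured genes.

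**Figure D2:**
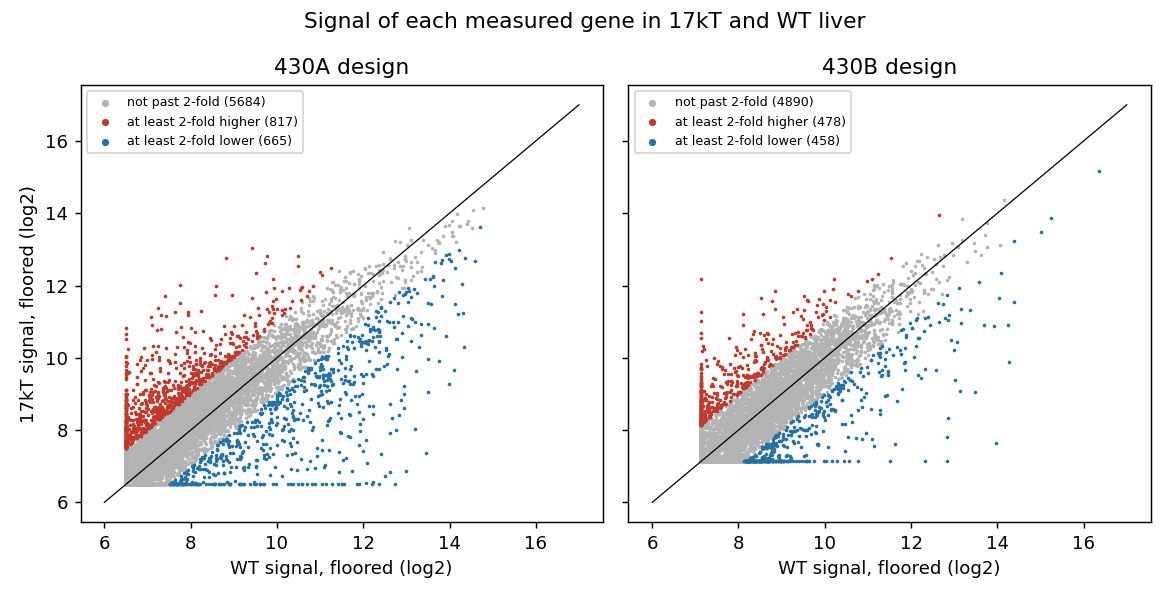
Floored signal of each measured gene in WT (horizontal axis, log2) and 17kT (vertical axis, log2), left for genes read on 430A and right for genes read on 430B. Each point is 1 gene, coloured by its call, and the diagonal marks equal signals. Points along the left and lower edges are genes at the floor on 1 array. On 430A 817 genes were higher and 665 lower, and on 430B 478 and 458.

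The direction of the calls moved with brightness. Among 959 genes whose mean signal was at least 16 times the floor, 6.47% were higher and 31.2% lower, with a median log2 ratio of -0.36. Among 3654 genes at 2 to 4 times the floor, 12.8% were higher and 6.54% lower.

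**Figure D3:**
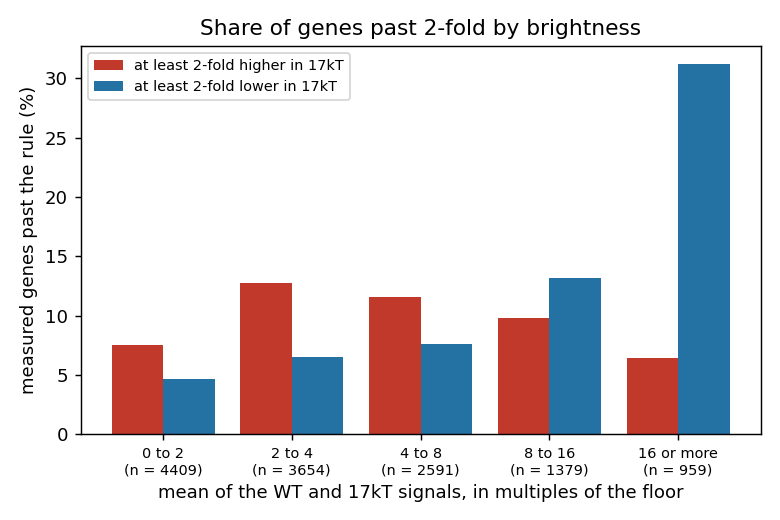
Share of measured genes at least 2-fold higher (red) or lower (blue) in 17kT, in percent, by the mean of the WT and 17kT signals in multiples of the floor. The number of genes in each class stands below its bars. The share of lower genes climbs from 4.67% in the dimmest class to 31.2% in the brightest.

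Targets of p53 that feed back on p53 or arrest the cell were higher as a group: 13 of 20 measured members were higher and 0 lower, against 9.97% and 8.64% of all measured genes (median log2 ratio 1.76, 1.58 to 2.28 over the 6 scalings). Cdkn1a, the p21 inhibitor of cyclin-dependent kinases, read 215 in WT and 2938 in 17kT (13.7-fold higher), and 881 in LT. Mdm2, the ubiquitin ligase that removes p53, read 219 in WT and 892 in 17kT (4.07-fold higher), and 340.4 in LT. The 17kT array was the highest of the 3 for both genes. Of the 2 other probe sets measured for Mdm2, one had a log2 ratio of 1.44 and the other, below the floor in 17kT, -0.74. Ppm1d, a phosphatase that damps the p53 response, read 223 in WT and 912 in 17kT (4.098-fold higher), and 585 in LT.

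Several p53 targets read close to WT in LT and far above both in 17kT. Btg2, an inhibitor of proliferation, read 349 in WT and 1507 in 17kT (4.32-fold higher), and 301 in LT. Trp53inp1, a p53-induced nuclear protein, read 511 in WT and 1892 in 17kT (3.699-fold higher), and 546 in LT. Psrc1, a microtubule-binding protein, read 70.1 in WT, below the floor, and 1049.7 in 17kT (at least 11.6-fold higher), and 118 in LT. In these 3 genes the 17kT array was the brightest, though Btg2 and Trp53inp1 were above the floor in WT and LT too. Cyclin G1, Ccng1, read 297 in WT and 644 in 17kT (2.17-fold higher) and 154 in LT, the lowest of the 3 arrays. The other probe sets of Ccng1 gave log2 ratios of 2.02 and 2.84, and over the 6 scalings the gene ran from 0.85, under the rule, to 2.67. Plk2, a polo-like kinase, read 168 in WT and 659.7 in 17kT (3.93-fold higher), and 277 in LT. The phosphatase gene Ptp4a3 was 9.99-fold higher, with 165 in LT against 919 in 17kT.

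The dim arrest targets Ddit4 and Zmat3 were below the floor in WT. Ddit4, which restrains growth signalling through mTOR, read 68.1 in WT, below the floor, and 282 in 17kT (at least 3.12-fold higher). Zmat3, an RNA-binding protein, read 43.9 in WT, below the floor, and 253 in 17kT (at least 2.802-fold higher). Ckap2 (6.12-fold higher) and Gtse1 (at least 5.63-fold higher) belong to the list and are also genes of dividing cells, and in LT they read 952 and 162, above WT. The 7 members that did not pass the rule were Plk3 (log2 ratio 0.23), Rprm (0.14), Ccng2 (-0.072), Sesn1 (0.040), Ei24 (0.31), Rrm2b (0.0048) and Mdm4 (0.69). Sfn, Gadd45a and Sesn2 were at the floor on both arrays. The list rests on the 430A design: over the 6 members with a measured probe set on 430B the median was -0.060. The p53 gene itself is not analysed here.

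Among p53 targets of cell death, 7 of 12 measured members were higher and 0 lower (median log2 ratio 1.03, 0.92 to 1.44 over the 6 scalings). Tnfrsf12a, the receptor for the cytokine TWEAK, read 10.1 in WT, below the floor, and 1801 in 17kT (at least 19.9-fold higher), and 921 in LT. Aen, a nuclease of apoptosis, read 354 in WT and 1099 in 17kT (3.11-fold higher), and 313 in LT. Phlda3, which restrains the kinase Akt, read 208 in WT and 590.2 in 17kT (2.83-fold higher), and 225 in LT. Aen and Phlda3 were thus highest on the 17kT array, with LT near WT. Apaf1, the scaffold of the apoptosome, was at least 2.77-fold higher, Siva1 2.85-fold higher, Pidd1 at least 2.04-fold higher and Bid 2.04-fold higher. The best known death genes of p53 did not pass: Bbc3 (Puma) read 94.6 in WT and 102 in 17kT, Pmaip1 (Noxa) 2.80 in WT, below the floor, and 110.2 in 17kT and Fas 70.8 in WT, below the floor, and 91.2 in 17kT. For Pmaip1 and Fas, below the floor of 90.4 in WT, such 17kT signals could not reach 2-fold. Their ratios are bounds, and an increase of these 2 genes is not excluded. Perp had a log2 ratio of -0.43 and Trp53i11 of -0.68. Tnfrsf10b was at the floor on both arrays.

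Targets of p53 in repair and metabolism were mixed: 3 of 12 measured members were higher and 2 lower (median log2 ratio 0.25, 0.062 to 0.84 over the 6 scalings). The adenylate kinase Ak1 read 93.9 in WT and 416 in 17kT (4.43-fold higher), and 71.3 in LT, below the floor. The translesion polymerase Polk was 2.58-fold higher and the damage sensor Ddb2 at least 2.04-fold higher. Sco2, which assembles cytochrome c oxidase, read 998 in WT and 127 in 17kT (7.87-fold lower), and 172 in LT. Trp53inp2, an autophagy gene, was 2.18-fold lower. Xpc (0.19), Tigar (-0.013), Dcxr (-0.17), Epha2 (0.24), Abcb1a (0.26), Tap1 (0.48) and Ephx1 (0.66) had log2 ratios within the rule. In LT, Dcxr read 344 and Ephx1 1283, well under their 17kT signals of 2098 and 4867.

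**Figure D4:**
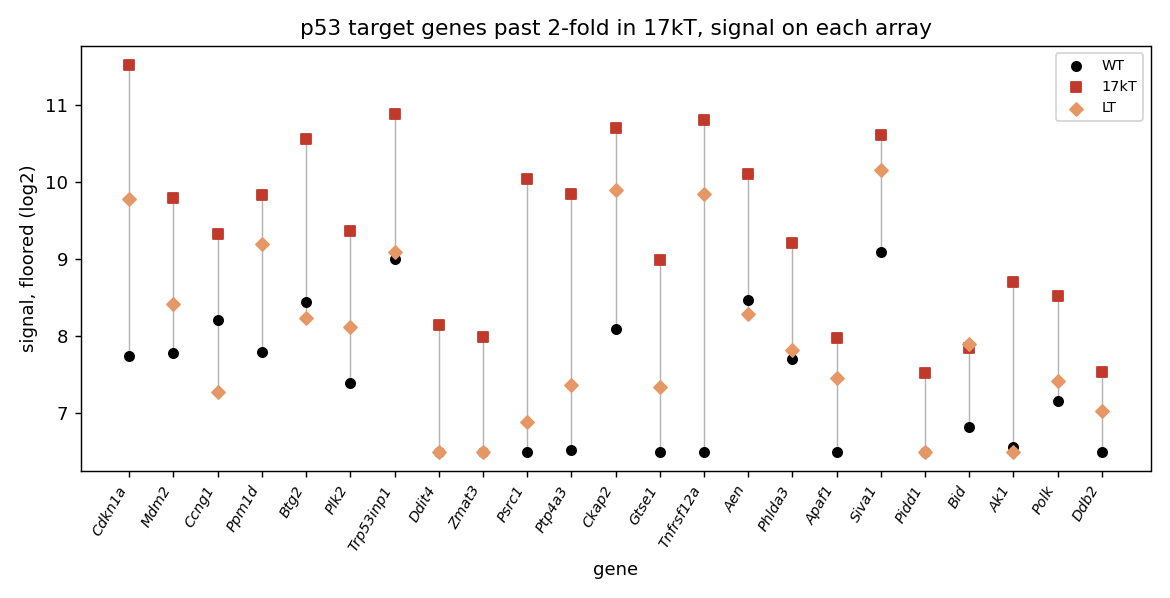
Floored signal (vertical axis, log2) of the 23 p53 targets of the 3 lists that were at least 2-fold higher in 17kT than in WT, on the WT (black circles), 17kT (red squares) and LT (orange diamonds) arrays. Each point is 1 array. The squares are the highest of the 3 points in every gene shown except Bid, where LT read 238 and 17kT 229. These genes were chosen for being high in 17kT.

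Genes of the mitochondrial death pathway divided. In the list of the Bcl2 family and caspases 5 of 22 measured members were higher and 0 lower (median log2 ratio 0.20, -0.095 to 0.80 over the 6 scalings, so the sign turns). Among all measured genes these shares were 9.97% and 8.64%. Of the 5 higher members, Apaf1 and Bid also belong to the p53 targets of cell death given above. The death-promoting Bcl2l11 (Bim) read 125 in WT and 553 in 17kT (4.41-fold higher), and the caspase gene Casp2 170.0 in WT and 595 in 17kT (3.501-fold higher). The guardians Bcl2 (-0.051), Bcl2l1 (0.31) and Mcl1 (-0.096) had log2 ratios close to 0.

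The E2F family divided between members past the rule and members near WT. Of the factors and their DP partners 5 of 10 measured members were higher and 0 lower (median log2 ratio 0.92, 0.83 to 0.98 over the 6 scalings). The activator E2f1 read 82.7 in WT, below the floor, and 277 in 17kT (at least 3.06-fold higher) and the activator E2f2 333 in WT and 1129 in 17kT (3.39-fold higher). The repressors E2f7 and E2f8, which close the wave of E2F activity, were 2.11-fold higher and at least 5.01-fold higher. The partner Tfdp1 was 2.87-fold higher. The activator E2f3 (-0.20), the repressors E2f4 (0.24), E2f5 (-0.30) and E2f6 (-0.21) and the partner Tfdp2 (0.76) had log2 ratios within the rule.

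In the list of the pocket proteins and the DREAM complex, which joins them to E2F on silent genes, 4 of 12 measured members were higher and 0 lower (median log2 ratio 0.71, 0.53 to 1.25 over the 6 scalings). Rbl1 (p107) read 102 in WT and 551 in 17kT (5.401-fold higher), but its 2 other probe sets gave log2 ratios of -0.085 and 0.045. Rb1 read 90.3 in WT, below the floor, and 221 in 17kT (at least 2.45-fold higher), and Rbl2 (p130) 149.7 in WT and 188 in 17kT, which is within the rule. The mitotic activator Foxm1 was 3.23-fold higher and the DREAM subunit Lin54 at least 4.15-fold higher. Log2 ratios of the other members were 0.15 for Lin9, 0.17 for Lin37, 0.27 for Lin52, 0.11 for Rbbp4, 0.86 for Rbbp7, 0.57 for Mybl2 and 0.97 for Hdac1.

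Cyclins and kinases of S phase and mitosis were higher and the D-type cyclins were not. In the list 12 of 19 measured members were higher and 2 lower (median log2 ratio 1.73, 1.498 to 2.09 over the 6 scalings). Ccna2, the cyclin of S phase, read 220.1 in WT and 1846 in 17kT (8.39-fold higher), and Cdk1, the mitotic kinase, 303 in WT and 2524 in 17kT (8.32-fold higher). The phosphatase Cdc25b was 4.24-fold higher and the kinase adaptor Cks1b 4.07-fold higher. Of the D-type cyclins, which answer growth factors, Ccnd1 read 558 in WT and 252 in 17kT (2.21-fold lower). Ccnd2 (-0.30) and Ccnd3 (-0.24) had log2 ratios below 0 within the rule. Of their kinase partners, Cdk6 was 2.38-fold lower, while Cdk4 was called higher (log2 ratio 1.16 to 2.09 over the 6 scalings). Ccne1 read 75.1 in WT, below the floor, and 158 in 17kT and Ccne2 32.5 in WT, below the floor, and 179 in 17kT, log2 ratios of at least 0.81 and 0.99.

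Inhibitors of cyclin-dependent kinases that were above the floor were higher, whereas the kinases went both ways (Cdk1 and Cdk4 higher, Cdk6 lower). All 4 measured members of the inhibitor list passed the rule upward (median log2 ratio 2.20, 2.01 to 2.48 over the 6 scalings). Cdkn3, a phosphatase that acts on the kinases, read 438 in WT and 3020.3 in 17kT (6.89-fold higher). The INK4 inhibitors Cdkn2c and Cdkn2d were 5.46-fold higher and at least 3.87-fold higher, and p27, Cdkn1b, was at least 2.94-fold higher. The INK4 genes Cdkn2a and Cdkn2b, and Cdkn1c, were at the floor on both arrays.

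Genes that license and fire replication origins were among the strongest increases. Of these 15 of 23 measured members were higher and 1 lower (median log2 ratio 2.41, 2.23 to 2.66 over the 6 scalings). The replicative helicase subunit Mcm2 read 94.3 in WT and 1216 in 17kT (12.9-fold higher), Mcm5 246 in WT and 2323 in 17kT (9.43-fold higher) and Mcm7 733 in WT and 5248 in 17kT (7.16-fold higher). Mcm3 was 7.65-fold higher, Mcm6 5.64-fold higher, the helicase cofactor Gins2 at least 11.7-fold higher, the loader Cdt1 8.41-fold higher and its inhibitor Gmnn (geminin) 7.26-fold higher. The origin recognition subunits varied, with log2 ratios of 0.39 for Orc2, 0.53 for Orc3 and 0.76 for Orc4, while Orc6 was at least 2.51-fold higher and Orc1 2.31-fold lower. At the replication fork 20 of 26 measured members were higher and 0 lower (median log2 ratio 1.91, 1.68 to 2.20 over the 6 scalings). The sliding clamp Pcna read 969 in WT and 4598 in 17kT (4.75-fold higher), the fork protection gene Timeless 51.9 in WT, below the floor, and 1053 in 17kT (at least 11.7-fold higher) and the primase Prim1 259 in WT and 1799 in 17kT (6.94-fold higher).

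Among genes that make DNA precursors, those of deoxynucleotide synthesis were higher in part. In deoxynucleotide synthesis 5 of 8 measured members were higher and 1 lower (median log2 ratio 1.34, 1.16 to 1.71 over the 6 scalings). Both subunit genes of ribonucleotide reductase were high: the large subunit gene Rrm1 read 151 in WT and 1289.9 in 17kT (8.55-fold higher), beside the small subunit gene Rrm2 at 14.4-fold higher. Thymidine kinase, Tk1, was 3.098-fold higher, and the serine transferase Shmt1, which also serves the one-carbon cycle, 2.36-fold lower. In purine and pyrimidine synthesis 2 of 15 measured members were higher and 0 lower (median log2 ratio 0.45, 0.21 to 0.93 over the 6 scalings). The share higher, 13.3%, was near the 9.97% of all measured genes. The 2 genes were Ctps (at least 5.09-fold) and Prps2 (2.53-fold). Paics, an abundant enzyme of that pathway, read 2434 in WT and 1725 in 17kT.

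Most measured mitosis genes were higher. Of mitotic kinases and spindle checkpoint genes 19 of 20 measured members were higher and 0 lower (median log2 ratio 2.32, 2.14 to 2.72 over the 6 scalings). The checkpoint kinase gene Bub1b read 64.6 in WT, below the floor, and 2072 in 17kT (at least 14.7-fold higher), the activator of the anaphase-promoting complex Cdc20 376 in WT and 3431 in 17kT (9.13-fold higher) and the checkpoint protein Mad2l1 138 in WT and 1001 in 17kT (7.23-fold higher). The cytokinesis genes Anln, Prc1 and Ect2 were at least 10.5-fold, 10.3-fold and at least 7.53-fold higher. Among kinesins, the motors of the spindle, 8 of 10 measured members were higher and 0 lower (median log2 ratio 2.27, 2.16 to 2.46 over the 6 scalings). Kif20a was at least 8.895-fold higher, Cenpe 8.51-fold higher and Kif11 at least 5.06-fold higher. Kif15 was an exception, at 213 in WT and 81.3, below the floor, in 17kT.

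In the list of the kinetochore and chromosomal passengers 16 of 20 measured members were higher and 0 lower (median log2 ratio 1.78, 1.62 to 1.96 over the 6 scalings). The centromeric histone Cenpa read 107 in WT and 704 in 17kT (6.56-fold higher) and the kinetochore protein Spc25 157 in WT and 793 in 17kT (5.05-fold higher). Condensin, cohesin and other chromosome structure genes followed: 15 of 19 measured members were higher and 0 lower (median log2 ratio 1.98, 1.89 to 2.15 over the 6 scalings). Smc4, a condensin core gene, read 246 in WT and 2455 in 17kT (9.98-fold higher), and Mki67, which coats mitotic chromosomes, 199 in WT and 2454 in 17kT (12.3-fold higher). For the anaphase-promoting complex and mitotic exit 8 of 16 measured members were higher and 0 lower (median log2 ratio 0.95, 0.72 to 1.48 over the 6 scalings). Its inhibitor Fbxo5 and the securin gene Pttg1 were at least 4.22-fold higher and 4.69-fold higher, as were the ubiquitin carriers Ube2c (11.8-fold) and Ube2s (8.65-fold).

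Promoter stretches of 7 of these genes are printed to show letters that are counted below in the replication and the mitosis lists. They were picked because they hold these letters. They come from RefSeq (build GRCm38.p6) and lie upstream of the annotated start. The first 3 are of replication and pocket protein genes, and capitals mark E2F elements, here any of TTTCCCGC, TTTCGCGC, TTTGCCGC or TTTGGCGC on either strand. The Mcm5 and the first Mcm6 run in capitals are each an overlapping pair, one element per strand. The stretches are Mcm5 at chr8:75109349-75109464 on the plus strand, Mcm6 at chr1:128359706-128359825 on the minus strand and Rbl1 at chr2:157204535-157204594 on the minus strand.
Mcm5: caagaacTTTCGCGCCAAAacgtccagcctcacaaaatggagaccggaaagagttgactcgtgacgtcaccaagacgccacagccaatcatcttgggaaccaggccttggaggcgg
Mcm6: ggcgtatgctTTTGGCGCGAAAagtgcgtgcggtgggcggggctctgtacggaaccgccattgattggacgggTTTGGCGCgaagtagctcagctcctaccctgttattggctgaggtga
Rbl1: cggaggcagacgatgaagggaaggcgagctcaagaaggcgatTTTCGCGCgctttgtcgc

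The other 4 stretches are of mitosis genes, and capitals mark the CCAAT box (CCAAT, or ATTGG on the other strand) and the cell cycle homology region (TTTGAA, or TTCAAA on the other strand), an element bound by the DREAM complex. Each group is marked for its own letters only, and the Mcm5 and Mcm6 stretches above also hold CCAAT or ATTGG, unmarked. The 4 stretches are Cdk1 at chr10:69352913-69353002 on the minus strand, Top2a at chr11:99024201-99024299 on the minus strand, Cdc20 at chr4:118437344-118437413 on the minus strand and Kif11 at chr19:37376322-37376381 on the plus strand.
Cdk1: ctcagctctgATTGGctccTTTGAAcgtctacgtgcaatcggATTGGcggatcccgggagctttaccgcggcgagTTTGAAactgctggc
Top2a: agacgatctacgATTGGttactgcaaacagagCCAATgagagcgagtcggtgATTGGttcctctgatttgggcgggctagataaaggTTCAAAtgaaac
Cdc20: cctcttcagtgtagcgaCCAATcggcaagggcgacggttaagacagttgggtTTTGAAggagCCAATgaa
Kif11: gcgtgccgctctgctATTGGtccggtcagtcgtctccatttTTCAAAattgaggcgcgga

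The same letters were sought in the 300-base window, from 250 bases before to 50 after the start, of each of 14452 array genes with a listed promoter. An E2F element lay in 3.38% of all windows, in 15 of 48 windows of the replication lists (31.2%) and in 4 of 45 of the mitosis lists (8.89%). The letters TTTGAA lay in 13.3% of all windows, in 28 of 45 of the mitosis lists (62.2%) and in 7 of 48 of the replication lists (14.6%). CCAAT differed less between the lists, at 38.2% of all windows, 26 of 48 replication windows (54.2%) and 29 of 45 mitosis windows (64.4%). CCAAT and TTTGAA together lay in 5.37% of all windows and in 22 of the 45 mitosis windows (48.9%). The replication lists counted here are those of origin licensing, the replication fork and deoxynucleotide synthesis. The mitosis lists are those of kinesins, of mitotic kinases and the spindle checkpoint, and of the kinetochore. Rbl1, Cdk1 and Top2a, printed above, are in none of these lists. The Cdk1 window also holds an E2F element, beyond the printed stretch. The lists group genes by function but were chosen with earlier results of these data known, so these shares are described and not tested. The matches describe letters, not bound sites.

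Over the whole arrays the E2F letters went with higher signal in 17kT. Of 408 measured genes with the element, 20.6% were higher and 3.43% lower, with a median log2 ratio of 0.28. Of 10061 measured genes without it, 9.90% were higher and 8.87% lower, with a median of 0.074. Among genes called higher 84 of 1080 windows held it (7.78%), and among those called lower 14 of 906 (1.55%). The difference between TTTGAA and no TTTGAA was smaller over all genes and went both ways. With and without it, 14.3% against 9.74% were higher and 9.99% against 8.46% lower, with medians of 0.078 and 0.083. By call, TTTGAA lay in 17.5% of windows of higher genes and 14.6% of lower ones, against 12.6% of measured genes. The gap was wider at 4-fold, with 30.2% of 182 windows of higher genes and 14.8% of 250 of lower ones. CCAAT and TTTGAA together lay in 24.2% and 4.40% of these windows, against 5.10% of measured genes. The E2F letters lay in 0 of 19 windows of p53 arrest targets, against 3.38% of all windows, so this 0 is near the share of all. They also lay in 0 of 14 windows of cholesterol synthesis genes and 0 of 33 of cytochrome P450 genes. For cholesterol synthesis genes, which were lower, the CCAAT letters lay in 13 of 14 windows (92.9%) against 38.2% of all. For cytochrome P450 genes, which were lower too, TTTGAA lay in 11 of 33 windows (33.3%) against 13.3% of all.

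Chromatin and DNA repair genes were higher too. In the list of chromatin and DNA methylation 14 of 20 measured members were higher and 0 lower (median log2 ratio 1.87, 1.64 to 2.50 over the 6 scalings). Uhrf1, which brings the maintenance methyltransferase to new DNA, read 59.0 in WT, below the floor, and 709 in 17kT (at least 7.84-fold higher), and that enzyme's gene Dnmt1 253 in WT and 1366 in 17kT (5.399-fold higher). The histone methyltransferase Ezh2 was 7.05-fold higher, the histone chaperone Asf1b 7.78-fold higher and the histone H2az1 4.98-fold higher. The methyltransferases of new marks did not pass, at 0.18 for Dnmt3a and -0.42 for Dnmt3b (log2 ratio). In DNA damage response and repair 18 of 27 measured members were higher and 0 lower (median log2 ratio 1.30, 1.06 to 1.58 over the 6 scalings). Brca1 read 36.6 in WT, below the floor, and 516 in 17kT (at least 5.71-fold higher), Topbp1 123 in WT and 671 in 17kT (5.48-fold higher) and the checkpoint kinase Chek1 27.4 in WT, below the floor, and 273 in 17kT (at least 3.02-fold higher). The damage kinase Atm read 799 in WT and 782 in 17kT.

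Most subunits of PP2A, the phosphatase on which small t acts, were within the rule. In all 2 of 12 measured members were higher and 0 lower (median log2 ratio 0.45, 0.27 to 0.70 over the 6 scalings). The shares of all measured genes were 9.97% higher and 8.64% lower. The catalytic subunit Ppp2cb read 150.5 in WT and 472 in 17kT (3.14-fold higher) while the other, Ppp2ca, read 1844 in WT and 1899.8 in 17kT. The regulatory subunit Ppp2r5d was 2.15-fold higher. The other 9 measured members had log2 ratios of 0.58 (Ppp2r1a), -0.51 (Ppp2r1b), 0.84 (Ppp2r2a), -0.18 (Ppp2r2d), -0.75 (Ppp2r3a), 0.76 (Ptpa), -0.34 (Ppp2r5a), 0.79 (Ppp2r5c) and 0.32 (Ppp2r5e). Ppp2r2b and Ppp2r5b were at the floor on both arrays.

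Several cytoskeletal genes were higher in 17kT, and some junction genes of hepatocytes were lower. The membrane binders Anxa2 and Anxa5 read 687 in WT and 3217 in 17kT (4.68-fold higher) and 853 in WT and 3602 in 17kT (4.22-fold higher). The myosin Myh9 was 3.297-fold higher and Actg1 2.62-fold higher, while Actb read 3814 in WT and 4233 in 17kT. Stathmin, Stmn1, which dismantles microtubules, read 848 in WT and 6292 in 17kT (7.42-fold higher), and the tubulin Tubb4b 1445 in WT and 5996 in 17kT (4.15-fold higher). In the list of tubulins and stathmin 4 of 9 measured members were higher and 1 lower (median log2 ratio 0.82, 0.63 to 1.48 over the 6 scalings), the lower one being Tuba4a (2.26-fold). Of keratins and junctions 2 of 15 measured members were higher and 6 lower (median log2 ratio -0.064, -0.11 to 0.091 over the 6 scalings, so the sign turns). The tight junction gene Cldn2 read 1305 in WT and 161 in 17kT (8.12-fold lower). The gap junction genes Gjb1 and Gjb2 were 4.26-fold lower and 3.28-fold lower. E-cadherin, Cdh1, read 565 in WT and 185 in 17kT (3.06-fold lower), and 642 in LT. The tight junction scaffold gene Tjp1 went the other way, 2.19-fold higher, and Cldn3, Ocln, Dsp, Pkp2 and Jup were within the rule.

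Some early response genes were higher, and some receptors of growth signals were lower. The shares of all measured genes were 9.97% higher and 8.64% lower. In the list of immediate early and AP-1 genes 5 of 15 measured members were higher and 0 lower (median log2 ratio 0.47, 0.47 to 0.93 over the 6 scalings). Egr1 read 159 in WT and 1784 in 17kT (11.2-fold higher), Jun 164 in WT and 554 in 17kT (3.37-fold higher) and Fos 24.4 in WT, below the floor, and 155 in 17kT, which gives no call. Among hepatocyte growth signals and receptors 2 of 31 measured members were higher and 6 lower (median log2 ratio 0.10, -0.17 to 0.45 over the 6 scalings, so the sign turns). The EGF receptor gene Egfr read 7759 in WT and 1451 in 17kT (5.35-fold lower) and the receptor gene Fgfr4 240.1 in WT and 101 in 17kT (2.38-fold lower). Myc itself read 42.5 in WT, below the floor, and 133 in 17kT, a log2 ratio of at least 0.56. Across the Myc network 1 of 16 measured members were higher and 1 lower (median log2 ratio 0.19, -0.062 to 0.81 over the 6 scalings, so the sign turns). The called genes were the antagonists Mxd1 (at least 5.69-fold lower) and Mnt (at least 2.08-fold higher), while Mxd3, Mxd4 and Mxi1 were within the rule.

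Most nuclear pore genes and some splicing genes were higher, and few genes of ribosomes, the proteasome or oxidative phosphorylation were called. Of nuclear pore and transport genes 17 of 25 measured members were higher and 0 lower (median log2 ratio 1.18, 0.91 to 1.83 over the 6 scalings), with Nup107 at least 4.33-fold higher, Nup62 3.94-fold higher and the importin Kpna2 3.18-fold higher. Of splicing and mRNA processing genes 10 of 25 measured members were higher and 2 lower (median log2 ratio 0.85, 0.58 to 1.496 over the 6 scalings). The splicing factors Srsf1 and Srsf3 were 3.26-fold higher and 2.65-fold higher, and Snrpd3 was 3.84-fold lower. For ribosome biogenesis 3 of 27 measured members were higher and 0 lower (median log2 ratio 0.60, 0.33 to 1.21 over the 6 scalings). For ribosomal proteins 1 of 25 measured members were higher and 0 lower (median log2 ratio 0.23, -0.043 to 0.86 over the 6 scalings, so the sign turns). For the proteasome 0 of 34 measured members were higher and 0 lower (median log2 ratio 0.11, -0.13 to 0.75 over the 6 scalings, so the sign turns). For oxidative phosphorylation 0 of 43 measured members were higher and 3 lower (median log2 ratio -0.37, -0.63 to 0.29 over the 6 scalings, so the sign turns).

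Cytochrome P450 genes, the oxidases of drug and steroid breakdown, were lower in most cases. Of these 0 of 35 measured members were higher and 28 lower (median log2 ratio -2.37, -2.59 to -1.76 over the 6 scalings). Cyp2f2 read 17647 in WT and 803 in 17kT (21.97-fold lower), Cyp1a2 7265 in WT and 343 in 17kT (21.2-fold lower) and Cyp4a12a 3801 in WT and 193 in 17kT (19.7-fold lower). Cyp2c23 and Cyp2c54 were 26.02-fold lower and at least 33.3-fold lower. P450 genes and the Ugt2b, Ces1, Sult2a, Akr1c, Acot, Mup, Saa and Mug families named here have close paralogs, so that their signals may be shared and are uncertain. Cyp1a1, dim in WT, had a log2 ratio of 0.46. Of conjugation and phase I enzymes 0 of 45 measured members were higher and 27 lower (median log2 ratio -1.26, -1.52 to -0.64 over the 6 scalings). The aldehyde oxidase Aox3 read 2768 in WT and 115 in 17kT (24.1-fold lower) and the alcohol dehydrogenase Adh4 2873 in WT and 244 in 17kT (11.8-fold lower). Ugt2b34 read 3922 in WT and 3459 in 17kT, within the rule. Of carboxylesterases 1 of 8 measured members were higher and 6 lower (median log2 ratio -2.81, -3.03 to -2.28 over the 6 scalings). Ces1c read 15512 in WT and 1555 in 17kT (9.97-fold lower), while Ces2e went the other way, at 752 in WT and 2668 in 17kT (3.55-fold higher).

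Every measured cholesterol synthesis gene but Hsd17b7 was called lower. In numbers, 0 of 17 measured members were higher and 16 lower (median log2 ratio -2.32, -2.59 to -1.66 over the 6 scalings). The late-step desaturase gene Sc5d read 7358 in WT and 323 in 17kT (22.8-fold lower), Msmo1 2232 in WT and 130.3 in 17kT (17.1-fold lower) and the farnesyl diphosphate synthase gene Fdps 4094 in WT and 315 in 17kT (13.004-fold lower). Idi1 was 9.999-fold lower, the entry enzyme Hmgcs1 8.06-fold lower and Sqle 5.98-fold lower. Hsd17b7 had a log2 ratio of -0.95. For sterol sensing and uptake 1 of 16 measured members were higher and 5 lower (median log2 ratio -0.38, -0.65 to 0.28 over the 6 scalings, so the sign turns). Of these, Insig1 and Insig2, which hold the sterol-sensing machinery in the ER, were 21.6-fold lower and 5.71-fold lower. Srebf1 was 2.31-fold lower, while Srebf2, the transcription factor of the pathway, read 308 in WT and 233 in 17kT.

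Most fatty acid synthesis genes were lower, and fatty acid oxidation genes were split. Of fatty acid and triglyceride synthesis genes 0 of 28 measured members were higher and 17 lower (median log2 ratio -1.31, -1.58 to -0.78 over the 6 scalings). Elovl3 read 2900.2 in WT and 43.4, below the floor, in 17kT (at least 32.1-fold lower), the acetyl-CoA carboxylase gene Acacb 960.1 in WT and 53.3, below the floor, in 17kT (at least 10.6-fold lower) and the desaturase gene Scd1 20456 in WT and 2413 in 17kT (8.48-fold lower). Of oxidation genes and targets of the fasting receptor PPARA 8 of 40 measured members were higher and 6 lower (median log2 ratio 0.015, -0.25 to 0.64 over the 6 scalings, so the sign turns). The lipase inhibitor Angptl4 read 495 in WT and 3419 in 17kT (6.91-fold higher), and 735 in LT. Pdk4, a brake on glucose oxidation, read 114 in WT and 515 in 17kT (4.53-fold higher), and 164 in LT. Cpt1a, the gate of mitochondrial oxidation, read 1247 in WT and 3881 in 17kT (3.11-fold higher), and 1527 in LT. These 3 genes were brightest in 17kT. The thioesterase genes Acot3 and Acot4 were at least 2.82-fold higher and at least 2.45-fold higher, beside the brighter Acot1 (18.9-fold) and Acot2 (at least 33.03-fold). Against these, the PPARA target Cyp4a14 read 1947 in WT and 157 in 17kT (12.4-fold lower), the thiolase gene Acaa1b was 4.36-fold lower and the gene of the receptor itself, Ppara, 2.21-fold lower.

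Some genes of glucose metabolism and most of amino acid breakdown were lower. Among genes of gluconeogenesis and fasting 0 of 22 measured members were higher and 10 lower (median log2 ratio -0.71, -0.88 to -0.34 over the 6 scalings). Gcgr, the glucagon receptor, was 13.7-fold lower and glucose-6-phosphatase, G6pc, 2.902-fold lower. Pck1, the entry enzyme of gluconeogenesis, read 2753 in WT and 4099 in 17kT, within the rule. In glycolysis and glycogen 2 of 26 measured members were higher and 6 lower (median log2 ratio -0.47, -0.68 to 0.19 over the 6 scalings, so the sign turns). The liver pyruvate kinase gene Pklr read 919 in WT and 261 in 17kT (3.52-fold lower) and the form of growing cells, Pkm, 217 in WT and 457 in 17kT (2.11-fold higher). In the urea cycle 0 of 12 measured members were higher and 5 lower (median log2 ratio -0.86, -1.13 to -0.64 over the 6 scalings). Arginase, Arg1, read 8923 in WT and 2150.1 in 17kT (4.15-fold lower), and Cps1, the first enzyme, 16140.3 in WT and 12961 in 17kT. In amino acid breakdown 0 of 41 measured members were higher and 29 lower (median log2 ratio -1.27, -1.48 to -0.91 over the 6 scalings). The glyoxylate enzyme Agxt read 2776 in WT and 169 in 17kT (16.4-fold lower) and the histidine ammonia lyase Hal 2355 in WT and 311 in 17kT (7.56-fold lower).

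In the methionine and one-carbon cycle 1 of 24 measured members were higher and 12 lower (median log2 ratio -0.97, -1.24 to -0.31 over the 6 scalings). Pemt, which methylates phosphatidylethanolamine, was 6.97-fold lower and Gnmt 3.203-fold lower, while Mat1a read 4613 in WT and 5208 in 17kT.

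Most genes of bile acid synthesis and transport were lower. In the list 3 of 32 measured members were higher and 22 lower (median log2 ratio -1.47, -1.74 to -0.81 over the 6 scalings). The basolateral importers were among the lowest: Slco1b2 read 4376 in WT and 135 in 17kT (32.4-fold lower), Slco2b1 7305 in WT and 226 in 17kT (32.4-fold lower) and Slc10a1 6549 in WT and 324 in 17kT (20.2-fold lower). Hsd3b7, an enzyme of bile acid synthesis, was 14.97-fold lower. The canalicular exporter Abcc2 read 242 in WT and 538 in 17kT (2.22-fold higher), and 118 in LT. The hydroxylase Cyp39a1 was 2.796-fold higher and the phospholipid exporter Abcb4 read 2887 in WT and 2396 in 17kT. Of hydroxysteroid dehydrogenases 0 of 22 measured members were higher and 13 lower (median log2 ratio -1.53, -1.71 to -1.21 over the 6 scalings). Hsd11b1, which reactivates glucocorticoid, read 7523 in WT and 455 in 17kT (16.5-fold lower), and Hsd17b2 4289 in WT and 212 in 17kT (20.2-fold lower).

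Carbonic anhydrases, which hydrate carbon dioxide, included genes far apart in direction. In this list 1 of 6 measured members were higher and 4 lower (median log2 ratio -2.27, -2.44 to -1.61 over the 6 scalings). Car3 read 16335 in WT and 621 in 17kT (26.3-fold lower), and 10259 in LT. Car5a, the mitochondrial form, was at least 6.701-fold lower, Car8 5.62-fold lower and Car14 4.15-fold lower. Car2 went the other way, at 285 in WT and 748 in 17kT (2.63-fold higher) and 2716 in LT. Car7 had a log2 ratio of -0.10. Car1, Car4, Car5b, Car9, Car12 and Car13 were at the floor on both arrays.

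**Figure D5:**
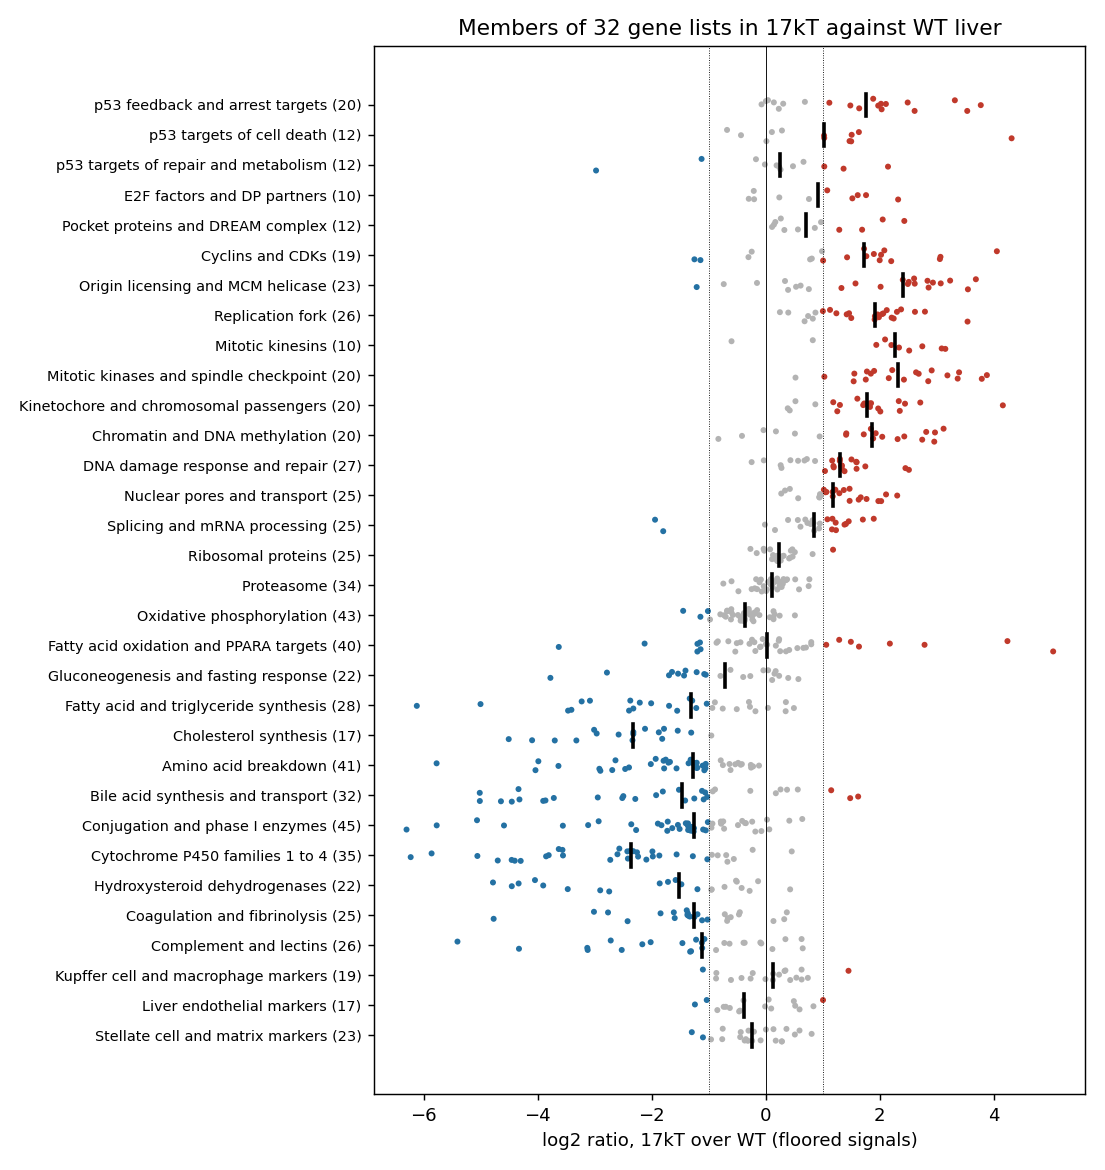
Log2 ratio of 17kT over WT (horizontal axis, floored signals) for each measured member of 32 gene lists, with the number of measured members in parentheses. Each point is 1 gene, red where at least 2-fold higher, blue where at least 2-fold lower and grey otherwise, and the black bar is the median of the list. Medians run from -2.32 for cholesterol synthesis and -2.37 for cytochrome P450 genes to 2.41 for origin licensing; on other scalings the medians of ribosomal proteins, the proteasome, oxidative phosphorylation, fatty acid oxidation and the 3 nonhepatocyte marker lists change sign.

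Most genes of proteins that hepatocytes secrete were lower. In coagulation and fibrinolysis 0 of 25 measured members were higher and 16 lower (median log2 ratio -1.25, -1.47 to -0.59 over the 6 scalings). The plasma protein Hrg read 6981 in WT and 255 in 17kT (27.3-fold lower) and the contact factor Klkb1 2274 in WT and 282 in 17kT (8.07-fold lower), while the fibrinogen chain Fga read 17308 in WT and 10530.2 in 17kT. In complement and lectins 0 of 26 measured members were higher and 15 lower (median log2 ratio -1.12, -1.39 to -0.51 over the 6 scalings). The chains of the terminal component C8 were among the lowest: C8g read 7825 in WT and 389 in 17kT (20.1-fold lower) and C8b 3696 in WT and 424 in 17kT (8.71-fold lower). Among apolipoproteins and plasma carriers 0 of 36 measured members were higher and 21 lower (median log2 ratio -1.23, -1.49 to -0.68 over the 6 scalings). Apom read 3131 in WT and 151 in 17kT (20.8-fold lower) and Apoa2 20608 in WT and 1266 in 17kT (16.3-fold lower), while Apoa5 read 5570.0 in WT and 5168 in 17kT and Apob 4327 in WT and 2569.9 in 17kT.

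Acute phase and iron genes held both large decreases and the large increase of Hamp. Of these 3 of 27 measured members were higher and 12 lower (median log2 ratio -0.87, -1.14 to -0.21 over the 6 scalings). Orm1 read 4103 in WT and 169.9 in 17kT (24.2-fold lower) and Apcs 3293 in WT and 222 in 17kT (14.8-fold lower). Hamp, which makes the iron hormone hepcidin, read 867 in WT and 7184 in 17kT (8.29-fold higher). The signal inhibitor Socs3 was 2.24-fold higher and the iron scavenger gene Lcn2 2.06-fold higher. Among metallothioneins and zinc transporters 3 of 9 measured members were higher and 2 lower (median log2 ratio 0.066, -0.13 to 0.12 over the 6 scalings, so the sign turns). The metallothioneins, which bind zinc and copper, included a bright pair, while Mt3 was at the floor on both arrays. Mt1 read 686 in WT and 8467 in 17kT (12.3-fold higher) and Mt2 383 in WT and 4089 in 17kT (10.7-fold higher), and in LT they read 3927 and 1519. The zinc importer Slc39a14 was 2.48-fold higher, while another importer, Slc39a4, was 2.27-fold lower and the exporter Slc30a10 3.82-fold lower. Mtf1, the metal sensor of these genes, read 580.4 in WT and 643 in 17kT.

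Most measured genes of both ends of the liver lobule were lower. Among genes of hepatocytes near the central vein 0 of 15 measured members were higher and 8 lower (median log2 ratio -2.19, -2.30 to -1.54 over the 6 scalings), with Cyp2e1 14.4-fold lower, Gulo 13.3-fold lower and the glutamine synthetase gene Glul 4.57-fold lower. Among genes of hepatocytes near the portal vein 0 of 16 measured members were higher and 10 lower (median log2 ratio -1.60, -1.84 to -1.17 over the 6 scalings), with Pigr 50.8-fold lower, Hsd17b6 at least 11.1-fold lower and Etnppl 6.37-fold lower. Axin2, a Wnt target of the central zone, read 133 in WT and 102 in 17kT, and Tbx3 131 in WT and 140.2 in 17kT.

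Most members of a list that joins growth hormone signalling and sex-biased genes were lower, though several signalling genes were within the rule. In this mixed list 2 of 34 measured members were higher and 24 lower (median log2 ratio -2.70, -2.95 to -2.15 over the 6 scalings). The receptor gene Ghr read 5259.6 in WT and 818 in 17kT (6.43-fold lower), the growth factor Igf1 21524 in WT and 2965 in 17kT (7.26-fold lower) and its carrier Igfals 734 in WT and 47.0, below the floor, in 17kT (at least 8.12-fold lower). Cyp2d9, a male-biased P450, was 11.8-fold lower. Cyp2b9, a female-biased P450, was at least 5.34-fold lower. Cux2, a female-biased transcription factor, read 178 in WT and 469.5 in 17kT (2.63-fold higher). The hormone-induced inhibitors Cish (-0.46) and Socs2 (0.35) had log2 ratios within the rule, as did Stat5a, Stat5b and Bcl6.

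Transcription factors of hepatocyte identity were mostly within the rule. Among them 1 of 26 measured members were higher and 5 lower (median log2 ratio -0.17, -0.44 to 0.38 over the 6 scalings, so the sign turns). Hnf4a read 2981 in WT and 2458 in 17kT, and Foxa2 and Foxa3 had log2 ratios of 0.65 and 0.83. Cebpa read 2244 in WT and 538 in 17kT (4.17-fold lower), and 1221 in LT. The xenobiotic receptor Nr1i3 was at least 3.98-fold lower and the bile acid receptor Nr1h4 2.13-fold lower.

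Hepatocyte markers were bright on both arrays: Alb read 28283 in WT and 18262 in 17kT and Fgb 23856 in WT and 17424 in 17kT. Even so 0 of 14 measured members were higher and 8 lower (median log2 ratio -1.13, -1.31 to -0.45 over the 6 scalings), and the summed signal of the 14 was 273293 in WT and 137471 in 17kT. In bulk liver RNA, fewer hepatocytes and less of these transcripts per hepatocyte cannot be told apart. Of Kupffer cell and macrophage markers 1 of 19 measured members were higher and 1 lower (median log2 ratio 0.13, -0.14 to 0.79 over the 6 scalings, so the sign turns), with a summed signal of 22142 in WT and 23916 in 17kT. The Kupffer gene Clec4f read 2144 in WT and 2342 in 17kT, while Timd4 was 2.15-fold lower and Mpeg1 2.74-fold higher. For endothelial markers the summed signal was 9687 in WT and 8289 in 17kT and 1 of 17 measured members were higher and 2 lower, with Cdh5 2.36-fold lower and Lyve1 2.01-fold higher. For stellate cells and matrix it was 15167 in WT and 12539 in 17kT and 0 of 23 measured members were higher and 2 lower.

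Many markers of blood cells, bile ducts and neighbouring organs were at the floor. Among bile duct and progenitor markers 12 of 15, Krt19, Epcam and Sox9 included, were at the floor on both arrays. The same held for 10 of 18 T and NK cell markers, Cd3d and Cd3e included, and for 7 of 12 neutrophil markers, S100a8 and S100a9 included. Of the B and plasma cell list 0 of 13 measured members were higher and 5 lower (median -0.37, summed signal 5268 in WT and 3336 in 17kT). The immunoglobulin chain Ighm read 455 in WT and 154 in 17kT (2.95-fold lower) and the antigen-presenting gene Cd74 1084 in WT and 502 in 17kT (2.16-fold lower). Of 14 erythroid and blood markers 7 were at the floor on both arrays, among them Hba-a1. Of the others 1 of 7 measured members were higher and 1 lower (median log2 ratio -0.027, -0.20 to 0.71 over the 6 scalings, so the sign turns). Car2, given above, was the higher one. Alas2, the heme enzyme of red cell precursors, read 1742 in WT and 141 in 17kT (12.4-fold lower). The pancreatic list had 6 of 10 members at the floor, and of the rest 0 of 4 measured members were higher and 1 lower (median log2 ratio -0.34, -0.57 to 0.23 over the 6 scalings, so the sign turns). Cela1 read 1154 in WT and 209 in 17kT (5.51-fold lower). Among measured neutrophil markers 1 of 5 was higher, Lcn2 (median log2 ratio 0.19). For the bile duct (median 0.26, n = 3), T and NK cell (median -0.10, n = 8) and kidney and gut lists (median 0.27, n = 5) 0 measured members were called. Of the muscle and adipose list 0 of 3 measured members were higher and 1 lower, the lower one being Fabp4 (2.33-fold). The part of these other cells in the results above was not tested.

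Stress and transport lists held few calls or calls both ways. Beside them stand the shares of all measured genes, 9.97% higher and 8.64% lower. Among heat shock chaperones 1 of 16 measured members were higher and 1 lower (median log2 ratio 0.20, -0.058 to 0.79 over the 6 scalings, so the sign turns), with Hspb1 2.78-fold higher and Hsph1 2.87-fold lower. In the hypoxia response 1 of 15 measured members were higher and 2 lower (median log2 ratio -0.016, -0.24 to 0.57 over the 6 scalings, so the sign turns), with the oxygen sensor gene Egln3 2.49-fold higher and the vessel growth factor gene Vegfa 2.07-fold lower. Of Wnt, Notch and Hippo genes 1 of 24 measured members were higher and 0 lower (median log2 ratio 0.078, -0.12 to 0.18 over the 6 scalings, so the sign turns), and the called one was Axin1. For translation factors and tRNA synthetases 1 of 24 measured members were higher and 1 lower (median log2 ratio 0.13, -0.14 to 0.78 over the 6 scalings, so the sign turns). In heme synthesis and breakdown 1 of 10 measured members were higher and 2 lower (median log2 ratio -0.43, -0.70 to 0.23 over the 6 scalings, so the sign turns). Of lipid droplet and lipolysis genes 1 of 21 measured members were higher and 6 lower (median log2 ratio -0.087, -0.36 to 0.46 over the 6 scalings, so the sign turns), with the lipase inhibitor G0s2 3.49-fold higher and the fatty acid carrier Fabp1 7.91-fold lower. Among solute carriers of amino acids, sugars and ions 3 of 40 measured members were higher and 15 lower (median log2 ratio -0.45, -0.58 to -0.37 over the 6 scalings), with the glucose transporter Slc2a2 4.26-fold lower and the lactate transporter Slc16a1 2.93-fold higher. Of mitochondrial carriers 2 of 21 measured members were higher and 4 lower (median log2 ratio 0.011, -0.26 to 0.67 over the 6 scalings, so the sign turns), with the citrate carrier Slc25a1 3.24-fold lower. Of germ-line and testis genes 11 of 14 were at the floor on both arrays, and Rad51ap1 and Syce2 were at least 4.42-fold higher and at least 3.84-fold higher. Among chemokines and cytokines 4 of 15 measured members were higher and 2 lower (median log2 ratio 0.079, -0.20 to 0.67 over the 6 scalings, so the sign turns), with Ccl6 8.16-fold higher and Ccl9 4.14-fold lower.

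Other genes among the highest and the lowest belonged to mitosis and to metabolism. Cdca3, a trigger of mitotic entry, read 172 in WT and 2295 in 17kT (13.3-fold higher), the spindle gene Nusap1 115 in WT and 1045 in 17kT (9.099-fold higher) and the histone chaperone Dnajc9 140.5 in WT and 1276 in 17kT (9.08-fold higher). Gas2l3 read 106 in WT, below the floor, and 2455 in 17kT (at least 17.5-fold higher) and Bex3 23.0 in WT, below the floor, and 1477 in 17kT (at least 16.3-fold higher). The mitochondrial carrier Slc25a4 was at least 11.6-fold higher. On the lower side Nudt7, a peroxisomal hydrolase of coenzyme A, read 19769.7 in WT and 943 in 17kT (20.96-fold lower). The acetyltransferase gene Nat8f1 was 29.2-fold lower and the water channel gene Aqp8 20.5-fold lower.

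The probe sets of some genes disagree. Of 1037 called genes with another measured probe set, another probe set shared the sign in 84.3%, all others shared it in 73.9%, and in 26 genes another probe set opposed the call by at least 2-fold. The genes of that kind are Aak1, Atp8b4, B3galt5, Cenpk, Cmah, Cnot7, Cpne8, Foxp1, Gas2, Hnrnpab, Hnrnpl, Hsd17b13, Igsf23, Itpkc, Kank1, Pyroxd2, Rbms3, Rc3h2, Sh3pxd2b, Supt20, Tmem65, Tpm1, Txndc15, Ube2v2, Wdr4 and Zfp106. Cmah read 8998 in WT and 541 in 17kT (16.6-fold lower), but another of its probe sets gave a log2 ratio of 1.41. Txndc15 was 3.08-fold lower by its brightest probe set and its other one gave 1.73. By its brightest probe set Tpm1 was 2.296-fold higher, with its 2 other probe sets at -1.25 and -0.19. The direction of these 26 genes is uncertain.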

How the data were processed

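The deposited values are signal intensities, 1 per probe set, made by the authors with MAS5, per the submitters' processing notes (version not given in the sources used here). They had been scaled, since the 2% trimmed mean was near 250 on every array (250.12 on WT 430A). WT values carry 1 decimal and 17kT values more. Settings files deposited with the arrays hold other, non-expression entries. Per the file headers, fluidics station 1 washed the WT and 17kT arrays and station 2 the LT arrays.

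Signals were scaled within a design to a common 2% trimmed mean, floored at the median of the design and put on the log2 scale. On 430A 20393 of 22690 probe sets carried a single gene symbol in the platform annotation (691 several, 1606 none), and on 430B 14674 of 22575 (245 several, 7656 none). Only those with 1 symbol were used, which gave 18193 genes, with symbols updated through RefSeq (GRCm38.p6). A gene was read from its probe set with the highest signal relative to the floor. Genes were called at 2-fold. The 84 lists (72 of pathways, 12 of cell types) had 2024 entries, of which 177 are not analysed here. The result of 1 list is not reported here. Members and lists were chosen with earlier results of these data known. Named were the 25 highest and 25 lowest genes among those above both floors, the 10 brightest each way at the floor on the other, up to 6 of the largest ratios each way in each list, and all members of the p53, E2F, pocket protein, CDK inhibitor, PP2A and carbonic anhydrase lists, of which the text takes those that bear on each group. Other genes were named for their known function after their values were seen, most of them members within the rule or markers (Myc, Srebf2, Ghr and Igf1, for example).

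Alternatives were 5 other scalings, floors at the 25th and 75th percentile, the floor as a pseudocount, the mean over probe sets, no _x_at or _s_at probe sets, each design alone and a 3-fold rule. Python 3.11.15, pandas 2.3.3 and numpy 2.4.6 were used, and simulated arrays were used to test the code.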

Additional observations from a re-analysis of the deposited data

Results flagged for a closer look

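In 6 genes the 17kT and LT arrays lay on opposite sides of WT, each past 2-fold. Both ratios share the WT array, each rests on 1 array, and the difference was not tested. Ces2e, a carboxylesterase, read 752 in WT and 2668 in 17kT (log2 ratio 1.83) and 214 in LT. Abcc2, the canalicular exporter of conjugates, read 242 in WT and 538 in 17kT (1.15) and 118 in LT. AA619741 read 307 in WT and 638 in 17kT (1.05) and 82.0 in LT, below the floor. In these 3 genes the 17kT array was the highest and the LT array the lowest.

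The other 3 genes ran the opposite way. Epn2, an endocytic adaptor, read 597 in WT and 150.0 in 17kT (-1.99) and 1476 in LT. Hsd17b13, a lipid droplet protein of hepatocytes, read 1356 in WT and 453 in 17kT (-1.58) and 11106 in LT. Rmdn1 read 341 in WT and 54.2, below the floor, in 17kT (-1.28) and 763 in LT. Other probe sets of these 3 genes did not all follow: for 17kT against WT they gave 1.35 for Hsd17b13, -0.21 to 0.83 for Epn2 and -0.69 to 0.36 for Rmdn1.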

How the results depend on the processing

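No paired analysis was possible because each genotype has 1 array per design. Of the 1295 higher and 1123 lower genes, counts stayed within 1.5 times under the other settings except these. Higher genes numbered 2812 when scaled to the hybridisation controls, 2180 with the floor at the 25th percentile, 529 with it at the 75th, 548 on 430B alone and 436 at 3-fold. Lower genes numbered 1891 and 717 with those floors, 696 on 430A alone, 531 on 430B alone and 508 at 3-fold. The designs alone and the 3-fold rule give fewer by construction. Of the 2418 called genes, 2049 kept their call when scaled to the probe sets on both designs, 1976 when scaled to hybridisation controls, 1243 with the floor at the 75th percentile (2052 still measured), 1604 with the floor as a pseudocount and 1914 with the mean over probe sets. Over 79 lists the median moved by less than the probe set spread in 833 of the combinations of list and setting and by more in 93. Of the 29 lists with a median past 2-fold, 1 turned its sign: the median of p53 feedback and arrest targets, 1.76, was -0.060 on 430B alone, where the cause was not tested. Of the 50 with a median under 2-fold, 31 turned theirs over the scalings and 35 over all settings. Genes under the floor have only bounds, and 5201 give no ratio.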

Other observations

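Clock, oxidant response and interferon genes are groups not described above. Of all measured genes 9.97% were higher and 8.64% lower. In the circadian list 4 of 13 measured members were higher and 0 lower (median log2 ratio 0.16, -0.0029 to 0.37 over the 6 scalings, so the sign turns). The clock repressor Per1 read 5.60 in WT, below the floor, and 555 in 17kT (at least 6.14-fold higher) and Nr1d2 77.9 in WT, below the floor, and 511 in 17kT (at least 5.66-fold higher), while the core activators Arntl (-0.11) and Clock (-0.077) had log2 ratios near 0. The labels give no hour of sampling. Targets of the oxidant sensor NRF2 went both ways (4 of 21 measured members were higher and 5 lower, median log2 ratio 0.21, -0.070 to 0.77 over the 6 scalings, so the sign turns). Nqo1 and Hmox1 were at least 2.89-fold higher and 2.75-fold higher, and the glutathione synthesis genes Gclc and Gclm 2.08-fold lower and 2.15-fold lower. In the unfolded protein list 0 of 26 measured members were higher and 8 lower (median log2 ratio -0.69, -0.89 to -0.25 over the 6 scalings), with the disulfide isomerase Pdia6 2.91-fold lower.

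Genes of the interferon response held calls both ways, with 2 of 26 measured members higher (7.69%) and 4 lower (15.4%). Among all measured genes 9.97% were higher and 8.64% lower. The median log2 ratio of the list was -0.14 (-0.36 to 0.44 over the 6 scalings, so the sign turns). The GTPase gene Ifi47 read 1233 in WT and 289 in 17kT (4.27-fold lower) and Igtp 1997 in WT and 720.4 in 17kT (2.77-fold lower). Ifi27 read 6461 in WT and 15776 in 17kT (2.44-fold higher). The chemokine Cxcl9 was at least 7.38-fold lower and Cxcl10 2.23-fold higher. The galectins Lgals1 and Lgals3 were 5.57-fold higher and 3.54-fold higher. Of oncofetal and imprinted genes 6 of 14 measured members were higher and 0 lower (median log2 ratio 0.38, -0.054 to 0.48 over the 6 scalings, so the sign turns). Afp, the fetal albumin, read 65.7 in WT, below the floor, and 223 in 17kT (at least 2.47-fold higher) but 7712 in LT, and the fetal marker Gpc3 91.5 in WT and 187 in 17kT (2.04-fold higher) but 899 in LT. Golm1 and the RNA binder Igf2bp3 were 4.56-fold higher and 4.07-fold higher. In the peroxisome list 1 of 20 measured members were higher and 6 lower (median log2 ratio -0.53, -0.80 to 0.029 over the 6 scalings, so the sign turns), with the urate oxidase gene Uox 7.04-fold lower and the phytanate oxidase gene Phyh 3.94-fold lower.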
